A study of Mus musculus with 22 samples.

Results

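The response of 1 Dux-edited mouse embryonic stem (ES) cell line to a DNMT1 degrader was set against the response of the wild-type line, gene by gene. The comparison used 8 of the 22 libraries of the series, 2 for each of 4 groups. N22 GSK and N22 DMSO are libraries of the line titled Dux-N22, read here as 1 CRISPR-Cas9 clone carrying a single Dux copy, with the degrader GSK-3484862 or the solvent DMSO. WT GSK and WT DMSO are the same treatments of the unedited line. All 4 groups were mouse ES cells in serum with LIF and were collected after 3 days. The dose is uncertain, because the treatment protocol gives 1 uM and the design text 2 uM. Only 1 edited line and 1 wild-type line entered, so the Dux copy number and other differences between the lines cannot be told apart. The titles name no culture or batch, so each p-value reflects the variation between these libraries alone, and that variation may be technical.

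DNMT1 copies DNA methylation onto the new strand after replication, and its loss lets methylation drain from dividing cells. Dux is a homeobox transcription factor, encoded in a repeat array, that switches on genes of the 2-cell embryo such as the Zscan4 family. Many imprinted genes, germline genes and X-linked testis genes are held silent by methylation, and the tumour suppressor p53 switches on arrest and death genes under stress. Neither DNMT1 protein nor methylation was examined.

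A response is the log2 fold change of GSK over DMSO within a line, and a response difference is the N22 response minus the WT response. A positive value means that the gene rose more, or fell less, in N22 than in WT. Each was estimated with the edgeR quasi-likelihood test over all genes, is given as log2 ± standard error, and counts as called where its p after Benjamini-Hochberg adjustment was below 0.05. CPM are counts scaled to the size of each library.

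Windows at the annotated starts of 3 genes are shown because they differ in their content of CG dinucleotides, the sites at which DNMT1 acts. These genes were at low levels in N22 DMSO and near the WT level with GSK. Each window is 300 bases from RefSeq (GRCm38.p6), on the plus strand, from 250 bases before to 50 after the annotated start, and capitals mark every CG. Meg3 (chr12:109540746-109541045) and Rian (chr12:109603695-109603994) are noncoding RNAs of the same imprinted region, and Fmr1nb (chrX:68761589-68761888) is an X-linked gene known from testis.
Meg3: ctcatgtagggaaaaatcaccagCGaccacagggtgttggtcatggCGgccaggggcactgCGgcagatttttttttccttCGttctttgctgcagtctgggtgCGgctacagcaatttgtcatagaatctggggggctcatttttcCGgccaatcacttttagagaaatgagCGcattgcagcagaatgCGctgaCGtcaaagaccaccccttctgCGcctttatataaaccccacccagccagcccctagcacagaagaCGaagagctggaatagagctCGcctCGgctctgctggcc
Rian: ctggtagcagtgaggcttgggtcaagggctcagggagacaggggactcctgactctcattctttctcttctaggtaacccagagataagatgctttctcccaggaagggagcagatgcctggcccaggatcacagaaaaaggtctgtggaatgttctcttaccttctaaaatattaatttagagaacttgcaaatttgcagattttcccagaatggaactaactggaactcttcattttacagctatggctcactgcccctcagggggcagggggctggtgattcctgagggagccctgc
Fmr1nb: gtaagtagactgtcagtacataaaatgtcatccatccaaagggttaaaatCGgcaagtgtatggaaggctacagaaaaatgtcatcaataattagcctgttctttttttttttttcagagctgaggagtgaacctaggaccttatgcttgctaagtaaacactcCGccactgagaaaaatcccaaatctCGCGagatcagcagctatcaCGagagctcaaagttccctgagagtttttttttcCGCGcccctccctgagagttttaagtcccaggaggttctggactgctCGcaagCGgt
The Meg3 window held 13 CG, and 37.91% of the 32851 RefSeq windows of this length held at least as many. The Fmr1nb window held 9 (45.78%) and the Rian window 0, against a median of 7 over all windows. The CG count of these windows is a description and was not related to the responses by a test. Whether transcription starts at these positions was not examined, so the Rian window with 0 CG is not shown to be a promoter.

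Of 16641 tested genes, 1844 (11.1%) were called for the response difference, 968 with a higher response in N22 (5.82%) and 876 with a lower one (5.26%). Which direction held more genes depended on the setting, with 858 higher and 975 lower with RLE factors, 767 and 975 without the count filter, and 528 and 649 with DESeq2. Most differences were small. The median size over the called genes was 0.374 (log2), 181 genes reached 1, and the median over all tested genes was 0.01. The genes followed the same course in both lines more often than opposite courses: 864 of the called genes had responses called in the same direction in both, 123 in opposite directions, 357 in N22 alone and 490 in WT alone. Among the 373 that fell in both lines, 258 fell less in N22 and 115 fell more. Among the 491 that rose in both, 239 rose more in N22 and 252 rose less. The whole responses were of similar breadth, with 53.0% of tested genes called in N22 and 56.8% in WT. Without N22 DMSO replicate 2, 644 genes were called with a higher response in N22.

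Sorted by where the lines differed in level, most of the called genes had a level difference that was called with DMSO and not called with GSK. Levels of N22 and WT differed with DMSO only in 1199 called genes (65.02%), with GSK only in 269 (14.59%), with both in 263 (14.26%) and with neither in 113 (6.13%). The difference between the lines was larger in size with DMSO in 1430 of the 1844 genes (77.55%) and larger with GSK in 414. Over the called genes, the median size of the level difference was 0.122 with GSK and 0.30 with DMSO. Over all tested genes these medians were 0.134 with GSK and 0.196 with DMSO, and the lines differed in 9.65% of all tested genes with GSK and in 25.4% with DMSO. The response difference is built from the same 2 level differences, so this sorting describes the called genes and is no separate test. Fewer genes were called whichever library was left out, 644 to 774 with a higher response and 620 to 724 with a lower one. The full fit had 968 and 876. The DMSO-only, GSK-only and both classes shrank as well, so their sizes alone do not show that 1 library decided the sorting. Without 1 library each, the GSK-only class ranged from 161 to 224 genes, the class differing in both from 137 to 193, and the DMSO-only class from 791 (without N22 DMSO replicate 2) to 1061. The GSK-only class held 161 genes without WT GSK replicate 1, 174 without WT GSK replicate 2 and 179 without either N22 GSK library, and the DMSO-only class 794 without WT DMSO replicate 2. The class differing in both held 137 and 143 without WT GSK replicate 1 and 2, 156 and 139 without N22 GSK replicate 1 and 2, 171 without N22 DMSO replicate 2 and 175 without WT DMSO replicate 2.

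**Figure D1:**
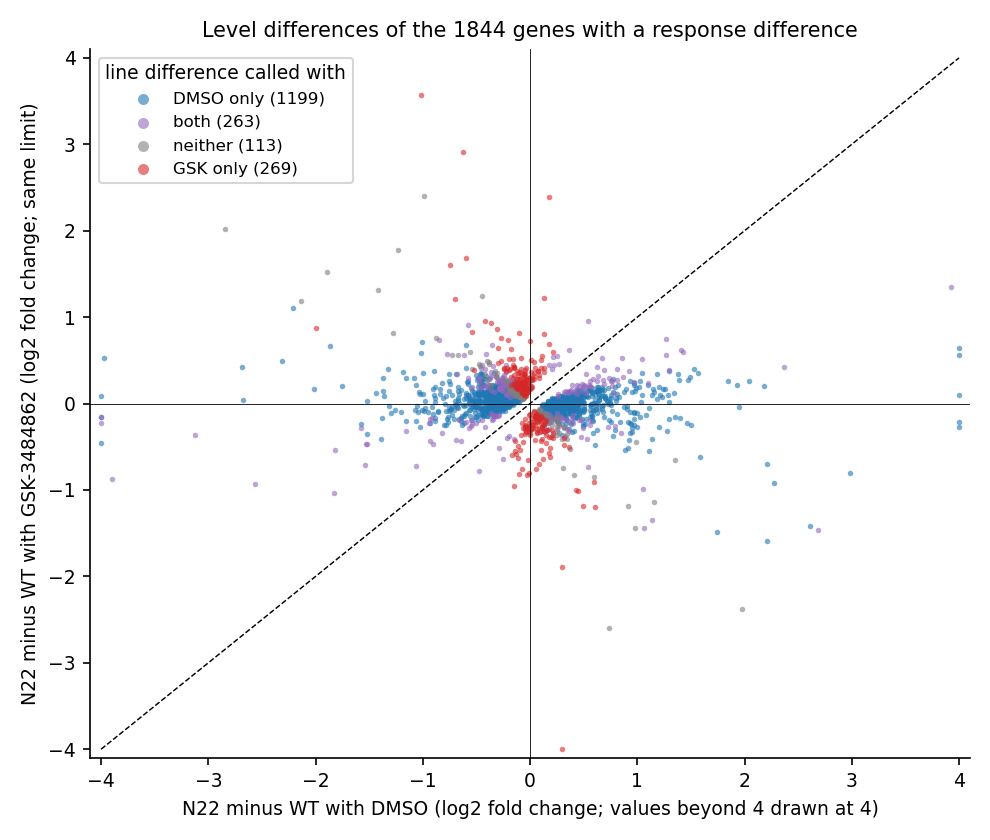
Level differences between N22 and WT with DMSO (x axis) and with GSK-3484862 (y axis), both log2, for the 1844 genes called for the response difference; colours give the class, and the dashed line marks equal differences. The points spread along the x axis because 1199 genes differed with DMSO only, and the empty band along the dashed line follows from the call itself.

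The gene counted for Dux itself was low in every library. Duxf3 had 13 and 11 counts in N22 GSK, 3 and 0 in N22 DMSO, 19 and 18 in WT GSK and 1 and 1 in WT DMSO. The counts of the lines did not overlap with GSK and did with DMSO. By edgeR the level difference was called neither with GSK (-0.54 ± 0.58, adjusted p = 0.655) nor with DMSO (0.57 ± 1.42, adjusted p = 0.817). With GSK the ratio of N22 to WT was 0.676 (95% counting interval 0.387 to 1.16). The ratio of GSK to DMSO was 8.49 in N22 (95% counting interval 2.58 to 44.1) and 19.5 in WT (5.02 to 167), and the response difference was -1.12 ± 1.58 (adjusted p = 0.741). Reads that map to several copies were not counted, so Duxf3 counts do not measure the array.

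Genes of the 2-cell embryo rose strongly in both lines, and their responses were rarely told apart. Of 44 tested members of the list, 1 had a higher and 1 a lower response in N22, or 4.55% called against 11.1% of all genes. The median response was 3.62 in N22 and 3.35 in WT, and the median response difference was 0.53. This median was 0.07 without WT DMSO replicate 2, 0.20 without N22 GSK replicate 1 and 0.11 without the count filter. The summed CPM of the list differed in the opposite direction, with a GSK to DMSO ratio of 1.70 in N22 and 2.20 in WT (-0.38 on the log2 scale). That sum is mostly made of members without near-identical copies, whose ratio was 1.29 in N22 and 1.44 in WT, against 13.9 in N22 and 11.1 in WT for the multi-copy members. Among the former, Eif1a alone held 8394 of 13135 counts in N22 GSK and 8853 of 10804 in N22 DMSO. In WT it held 8557 of 13697 with GSK and 7630 of 9988 with DMSO, so their summed ratio largely follows this 1 gene. In level, N22 lay below WT in both conditions over the whole list, by a median of 0.86 with GSK and 1.05 with DMSO on the log2 scale. With GSK 20 members of the list were called lower in N22 (4.6% of all tested genes were) and with DMSO 14 (13.9% of all genes), and 2 were called higher in each. A group of libraries held 3 or fewer counts in 14 of the 44 members, which leaves their differences poorly measured. Without the multi-copy families 14 members were tested, none was higher and 1 was lower, and the median was 0.01. Their median response was 2.18 in N22 and 2.78 in WT. Their median level difference was -0.468 with GSK and -0.065 with DMSO. In level 1 was called higher and 1 lower in N22 with GSK, and 2 higher and 2 lower with DMSO, so most of the lower calls were of multi-copy members.

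The Zscan4 genes, zinc finger genes that mark the 2-cell-like state, show this pattern. Their summed counts were 410 and 411 in N22 GSK, 38 and 47 in N22 DMSO, 1114 and 1063 in WT GSK and 90 and 115 in WT DMSO. N22 lay below WT in both conditions, without overlap. Scaled to the library total, the sums averaged 23.4 ± 1.46 CPM in N22 GSK, 2.28 ± 0.29 in N22 DMSO, 59.5 ± 2.51 in WT GSK and 5.32 ± 0.85 in WT DMSO (SD, n = 2 each), a GSK to DMSO ratio of 10.3 in N22 and 11.2 in WT. The level in N22 was 0.394 of that in WT with GSK and 0.428 with DMSO. Zscan4d, with a response difference of 0.09 ± 0.39 (adjusted p = 0.93), and Zscan4c, at -0.75 ± 0.42 (0.294), were not called. The sign for Zscan4d turned without N22 DMSO replicate 1 (-0.56), WT DMSO replicate 2 (-0.22) or N22 GSK replicate 2 (-0.12).

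The deubiquitinase genes of the Usp17l family summed to 434 and 458 counts in N22 GSK, 32 and 25 in N22 DMSO, 782 and 855 in WT GSK and 77 and 89 in WT DMSO. Here the ratio of GSK to DMSO was 16.6 in N22 and 10.4 in WT. Usp17la had a response difference of 1.42 ± 0.65 (adjusted p = 0.165) and was not called. The multi-copy model Gm21761 was the 1 member with a called higher response (1.64 ± 0.39, adjusted p = 0.00233), with 291 and 265 counts in N22 GSK, 8 and 6 in N22 DMSO, 546 and 570 in WT GSK and 38 and 49 in WT DMSO. It remained below WT in both N22 conditions, and the call was lost without N22 DMSO replicate 2. The member called lower was Eif1a, a translation initiation factor gene with 236 and 235 CPM in N22 GSK, 237 and 247 in N22 DMSO, 239 and 218 in WT GSK and 209 and 195 in WT DMSO, so that its response difference (-0.21 ± 0.06) is that of an expressed gene. Its call was lost without N22 DMSO replicate 2, WT DMSO replicate 2 or WT GSK replicate 1.

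Of the remaining 2-cell genes, Zfp352, a zinc finger gene, had 16 and 24 counts in N22 GSK, 0 and 0 in N22 DMSO, 46 and 43 in WT GSK and 2 and 4 in WT DMSO. Its ratio of GSK to DMSO was at least 14.2 in N22, taking 3 counts as the floor of the 2 N22 DMSO libraries together, and 15.6 in WT (6.89 to 43.6). Tcstv3 had 14 counts in N22 GSK and 0 in N22 DMSO, at least 4.95-fold higher with GSK, against 80 in WT GSK and 8 in WT DMSO, a ratio of 10.5 (5.09 to 25.2). Ddit4l, an mTOR inhibitor gene, was at 27.7 and 29.9 CPM in N22 GSK, 3.12 and 3.65 in N22 DMSO, 23.5 and 20.7 in WT GSK and 3.31 and 4.15 in WT DMSO, and its response difference of 0.52 ± 0.22 was not called (adjusted p = 0.12). Zfp750 (-0.22 ± 0.22) and Tmem92 (-1.98 ± 1.20) were not called either, and Tmem92 was at 0.03 without N22 DMSO replicate 2. The Zscan4, Usp17l, Tcstv and Tdpoz genes and Gm21761 have near-identical copies, so values of single members are uncertain.

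**Figure D2:**
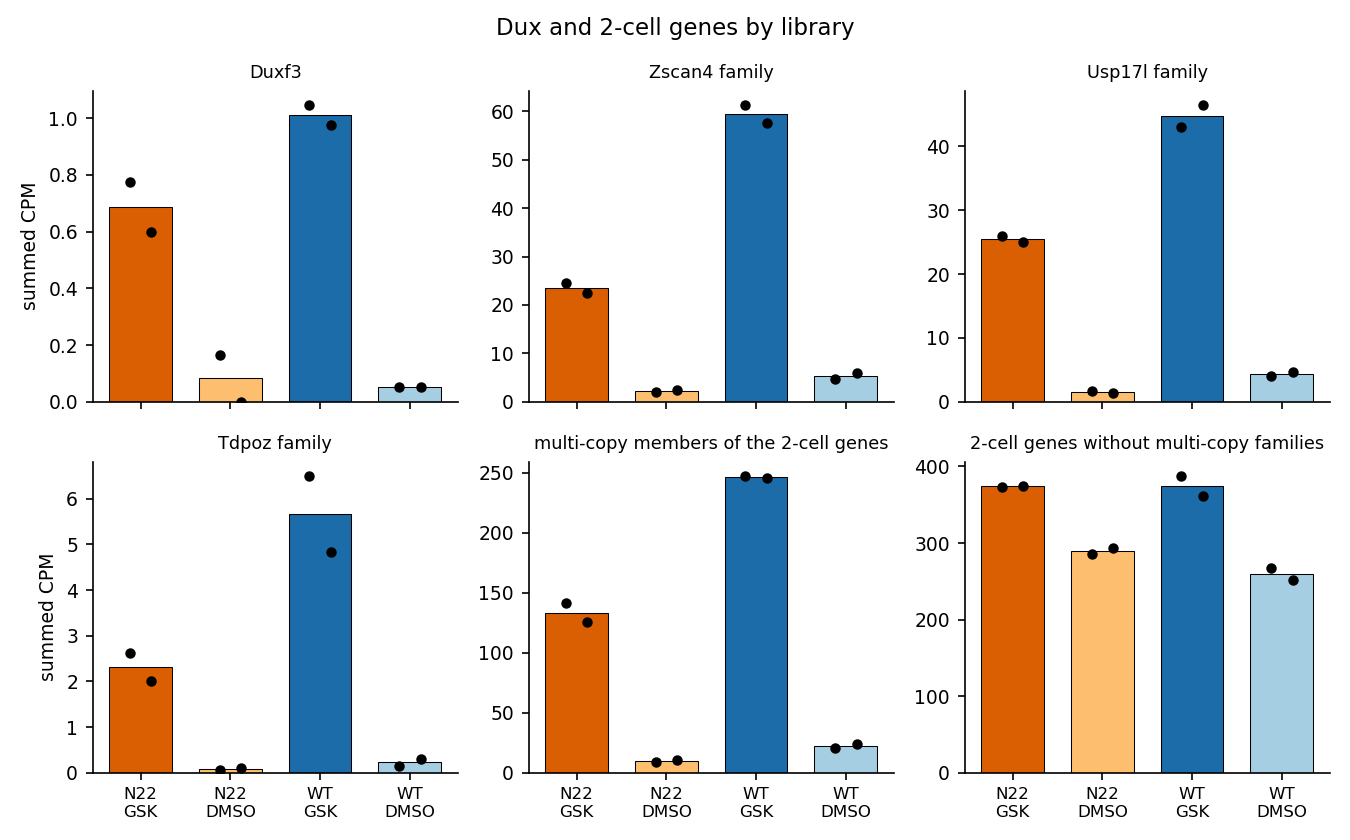
Summed CPM (y axes, from library totals, not scaled further) of Duxf3, of 3 gene families and of the 2-cell list split by copy number, with 1 bar per group mean and 1 dot per library. The Zscan4 family lies at 24.5 and 22.4 in N22 GSK and at 61.3 and 57.7 in WT GSK, while the genes without near-identical copies lie at 373 and 375 in N22 GSK and at 387 and 361 in WT GSK. Eif1a makes up most of the latter sum in every group.

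Imprinted genes, expressed from 1 parental allele, included Meg3 and Rian, which had the largest fitted response differences among called genes with a count in every group. Of 53 tested members, 33 rose and 7 fell in N22, where 26.9% of all tested genes rose and 26.0% fell. In WT 31 rose and 9 fell, where 28.7% of all tested genes rose and 28.1% fell. The response was higher in N22 for 10 members and lower for 5, or 28.30% called against 11.1% of all genes (5.82% higher and 5.26% lower), with a median response difference of 0.12. With DMSO 7 members were called higher and 19 lower in N22 than in WT, where 11.5% of all genes were higher and 13.9% lower. With GSK 3 members were called higher and 9 lower, where 5.05% of all genes were higher and 4.6% lower. In 13 of the 15 called members the lines differed more with DMSO than with GSK, as did 77.55% of all 1844 called genes. Without N22 DMSO replicate 2, 3 members had a lower response.

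Meg3, a noncoding RNA that is expressed from the maternal chromosome (chromosome 12), had 2294 and 2555 counts in N22 GSK, 0 and 2 in N22 DMSO, 2944 and 3027 in WT GSK and 270 and 308 in WT DMSO. The N22 DMSO libraries were nearly without Meg3 counts, and the lines came within 1.18-fold of each other with GSK. The ratio of GSK to DMSO was 2574 in N22 (95% counting interval 712 to 21259) and 10.9 in WT (9.97 to 11.8). Its neighbour Rian, the host of small nucleolar RNAs, had 2293 and 2613 counts in N22 GSK, 1 and 3 in N22 DMSO, 2865 and 2902 in WT GSK and 297 and 307 in WT DMSO, a GSK to DMSO ratio of 1302 in N22 (508 to 4781) and 10.0 in WT (9.23 to 10.9). The fitted response difference of Rian (6.95 ± 0.24, adjusted p = 6.99e-34) rests on the 4 counts of N22 DMSO, and its standard error is narrower than that counting interval. Mirg, a microRNA host of the region, had 283 and 327 counts in N22 GSK, 0 and 0 in N22 DMSO, 332 and 385 in WT GSK and 29 and 17 in WT DMSO, at least 216-fold higher with GSK in N22 and 16.4-fold in WT (12.2 to 22.6). The paternally expressed ligand gene Dlk1 of the same region had 238 and 261 counts in N22 GSK, 14 and 7 in N22 DMSO, 374 and 352 in WT GSK and 34 and 29 in WT DMSO. Its response difference (1.06 ± 0.36, adjusted p = 0.0442) was lost with DESeq2, without the count filter, with the 8 libraries fitted alone and without any of the 8 libraries except N22 DMSO replicate 1; it falls outside the naming rule and was named after its values were seen. The other edited line, KO22, labelled as lacking Dux, had 2371 and 2614 Meg3 counts with GSK and 1 and 4 with DMSO and is not compared further here.

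Mest, a paternally expressed gene on chromosome 6, stood at 207 and 198 CPM in N22 GSK, 1.06 and 1.02 in N22 DMSO, 200.5 and 195 in WT GSK and 6.04 and 7.3 in WT DMSO. The GSK levels of the lines overlapped and the DMSO levels did not (response difference 2.71 ± 0.17, adjusted p = 5.04e-21). H19, a maternally expressed noncoding RNA on chromosome 7, had 622 and 728 counts in N22 GSK, 1 and 3 in N22 DMSO, 1259 and 1346 in WT GSK and 34 and 31 in WT DMSO. N22 remained below WT with GSK, by 1.85-fold (1.73 to 1.98), and the response difference was 3.02 ± 0.50 (adjusted p = 8.83e-06), with a GSK to DMSO ratio of 358 in N22 (139.6 to 1317) and 42.1 in WT (32.9 to 54.8). Plagl1, a paternally expressed zinc finger gene, had 410 and 442 counts in N22 GSK, 1 and 3 in N22 DMSO, 566 and 587 in WT GSK and 9 and 29 in WT DMSO, and its call (2.76 ± 0.62) was lost without WT DMSO replicate 2. Smaller differences were those of the tetraspanin gene Cd81 (0.53 ± 0.07) and, in the other direction, of Peg10 (-0.31 ± 0.05), Zdbf2 (-0.43 ± 0.09) and Impact (-0.19 ± 0.06), which rose in both lines and rose less in N22. Zdbf2, Peg10 and Impact fall outside the naming rule, and Impact lost its call without N22 DMSO replicate 2, WT DMSO replicate 2, WT GSK replicate 1 or N22 GSK replicate 2.

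Lower DMSO levels in N22 were also found for some X-linked genes. Rhox5, a reproductive homeobox gene, was at 42.9 and 41 CPM in N22 GSK, 7.13 and 6.02 in N22 DMSO, 61.2 and 60.1 in WT GSK and 24.2 and 22.2 in WT DMSO, below WT in both conditions (response difference 1.29 ± 0.13, adjusted p = 1.01e-11). Fmr1nb was at 15.5 and 18.5 CPM in N22 GSK, 0.724 and 0.967 in N22 DMSO, 16.6 and 13.8 in WT GSK and 3.42 and 3.46 in WT DMSO. The lines overlapped with GSK and were apart with DMSO (2.18 ± 0.30, adjusted p = 1.38e-07). Usp26, a deubiquitinase gene known from testis, was at 21 and 20.2 CPM in N22 GSK, 1.5 and 0.806 in N22 DMSO, 16.2 and 17.4 in WT GSK and 2.56 and 2.57 in WT DMSO, above WT with GSK and below it with DMSO (response difference 1.45 ± 0.29, adjusted p = 0.000207). The level difference of Usp26 was called with DMSO only. These were single genes. Of 27 tested members of the list of X-linked testis and placenta genes Rhox5 and Usp26 were called, or 7.41% against 11.1% of all genes. Fmr1nb is not on that list. In each line 25 of the list rose, where 26.9% of all tested genes rose in N22 and 28.7% in WT. A group of libraries held 3 or fewer counts in 13 of the 27, so that differences of these members are poorly measured. The median response of the list was 4.57 in N22 and 2.96 in WT, and the median response difference was 0.105. Germline genes were called in 10.64% of 47, 4 higher and 1 lower, near the 11.1% of all genes. As single genes, the meiotic entry gene Stra8 (0.68 ± 0.16) and the synaptonemal complex gene Sycp3 (1.28 ± 0.35) fell in both lines and fell less in N22. Sycp3 lost the call without N22 DMSO replicate 2.

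**Figure D3:**
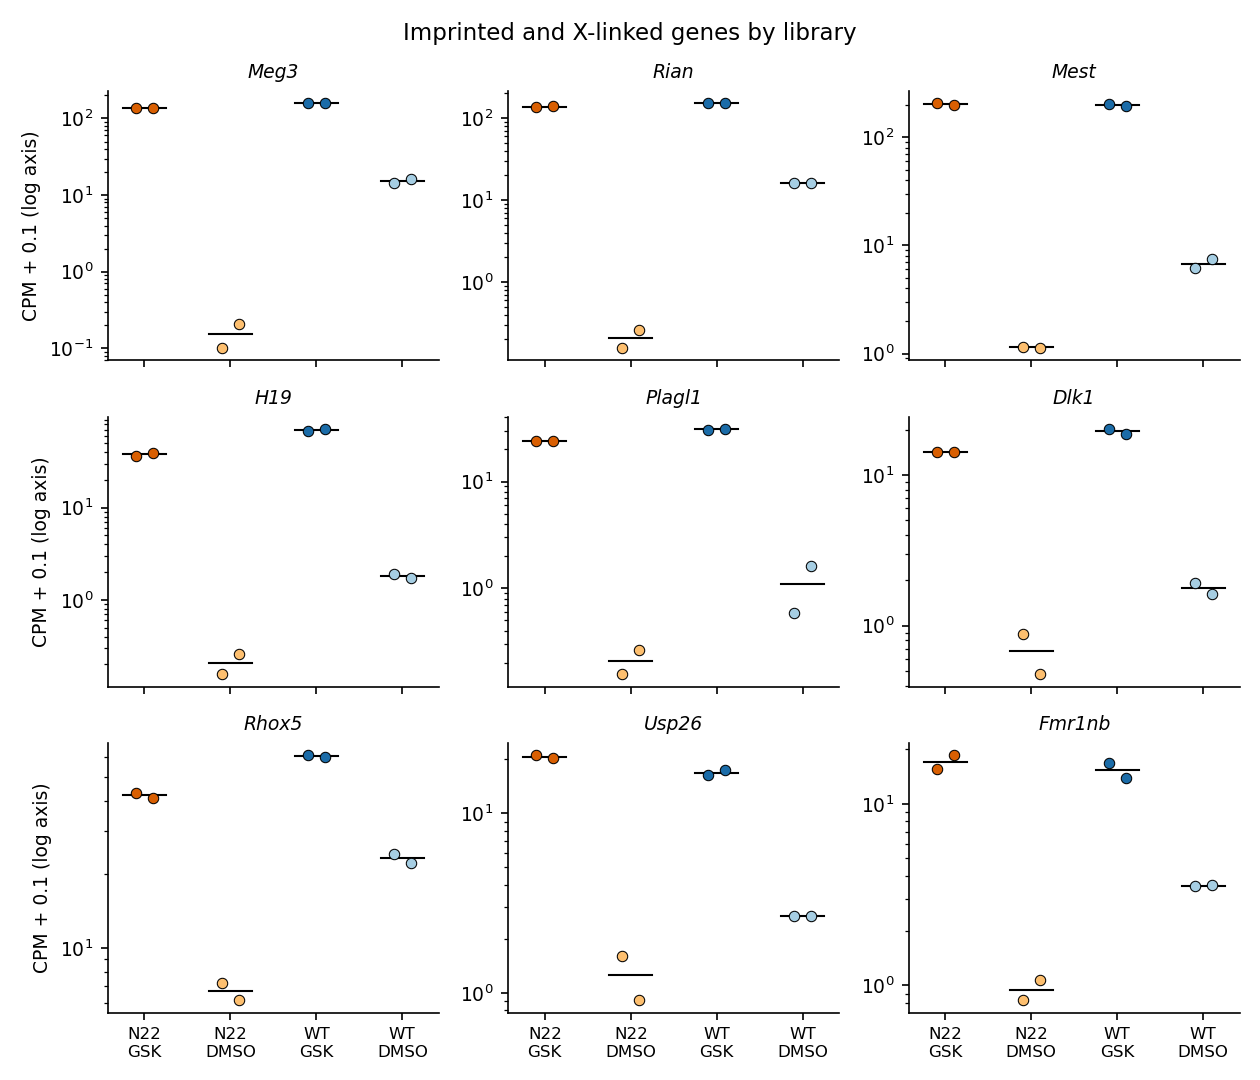
CPM plus 0.1 (log axes) of 9 imprinted and X-linked genes in the 8 libraries, with 1 dot per library and a line at each group mean. With DMSO the N22 dots lie below the WT dots in all 9 panels; with GSK they overlap for Mest and Fmr1nb, lie above for Usp26 and lie below for the other 6.

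Targets of p53 (Trp53 in the mouse) had the largest share of called members among the lists examined. Of 30 tested, 17 had a higher response in N22 and 0 a lower one (56.67% against 11.1% of all genes), with a median response difference of 0.30 against 0.01 over all genes. The median response was 0.93 in N22 and 0.77 in WT. The classes were mixed, with 7 genes differing in both conditions, 5 with DMSO only and 5 with GSK only. With GSK 18 members were called higher in N22 than in WT and 0 lower, where 5.05% of all genes were called higher. With DMSO 4 were higher and 12 lower, where 13.9% of all genes were called lower.

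Cdkn1a, the p21 cell cycle inhibitor, was at 179 and 182 CPM in N22 GSK, 52.2 and 54.2 in N22 DMSO, 148 and 161 in WT GSK and 70.3 and 70.4 in WT DMSO. N22 lay above WT with GSK and below it with DMSO, without overlap (response difference 0.63 ± 0.07, adjusted p = 2.45e-09). The same crossing was seen in Bbc3, the death gene PUMA, at 124 and 136 CPM in N22 GSK, 95.1 and 89.8 in N22 DMSO, 113 and 116 in WT GSK and 128 and 127 in WT DMSO. Bbc3 rose in N22 (0.49) and fell in WT (-0.16), a difference of 0.65 ± 0.07 (adjusted p = 1.15e-09). Phlda3, an AKT inhibitor gene, rose in both and more in N22 (0.56 ± 0.08). Trp53inp1, a p53 cofactor gene, differed between the lines with GSK only, at 446 and 431 CPM in N22 GSK and 359.6 and 325 in WT GSK (0.47 ± 0.06). Ddit4, an mTOR inhibitor gene that also responds to low oxygen, fell in both and less in N22 (0.50 ± 0.06). The numbers of called members ranged from 15 to 17 higher when any 1 library was left out, with 1 lower without WT GSK replicate 1.

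Feedback genes of the FGF and ERK pathway, through which ES cells leave the naive state, differed in the opposite direction. Of 22 tested, 8 had a lower and 2 a higher response in N22 (45.45% called against 11.1% of all genes, 5.26% lower), and the median was -0.16. The proto-oncogene Myc was at 83.5 and 87.1 CPM in N22 GSK, 93.9 and 93.9 in N22 DMSO, 90.9 and 92 in WT GSK and 49.2 and 49.1 in WT DMSO. It rose in WT to about the level that N22 held in both conditions (response difference -1.03 ± 0.07, adjusted p = 7.99e-18). Dusp6, an ERK phosphatase gene, was at 64.9 and 62.6 CPM in N22 GSK, 67.9 and 69 in N22 DMSO, 83.2 and 85.6 in WT GSK and 47.4 and 47.4 in WT DMSO, above WT with DMSO and below it with GSK (-0.94 ± 0.08). Spry4, an inhibitor of receptor signalling, fell in N22 (-0.54) and rose in WT (0.20), a difference of -0.74 ± 0.06. The early response gene Egr1 (-0.54 ± 0.10) and the ETS factor gene Etv4 (-0.30 ± 0.06) were lower too, and Etv4 differed between the lines with GSK only. The 2 higher calls came to 1 without N22 DMSO replicate 1, WT DMSO replicate 2, WT GSK replicate 1 or N22 GSK replicate 2.

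Wnt genes were called in 5 of 26 cases, all lower in N22 (19.23% lower against 5.26% of all genes), although the median of the list was 0.02. The transcription factor gene Lef1 was at 10.1 and 10.1 CPM in N22 GSK, 27.2 and 26.2 in N22 DMSO, 8.11 and 7.67 in WT GSK and 8.76 and 9.24 in WT DMSO. The N22 DMSO libraries stood above all others (-1.21 ± 0.19, adjusted p = 3.16e-06). Axin2, a feedback inhibitor (-0.57 ± 0.15), Notum, a Wnt deacylase gene (-0.50 ± 0.11), and the cyclin gene Ccnd1 (-0.51 ± 0.09) were likewise higher in N22 than in WT with DMSO. The call of Axin2 was lost without WT DMSO replicate 1, and 1 Wnt gene was called higher without WT DMSO replicate 2. Genes of the formative and primed epiblast were lower in 8 of 23 cases and higher in 1, which was not called without WT GSK replicate 1, with a median of -0.30 (39.13% called against 11.1% of all genes). They included Pou3f1 (-0.57 ± 0.10), which rose less in N22, Tcf15 (-0.54 ± 0.08) and the de novo methyltransferase gene Dnmt3b (-0.40 ± 0.05). Lef1 and Etv4 belong to 2 of these lists each.

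**Figure D4:**
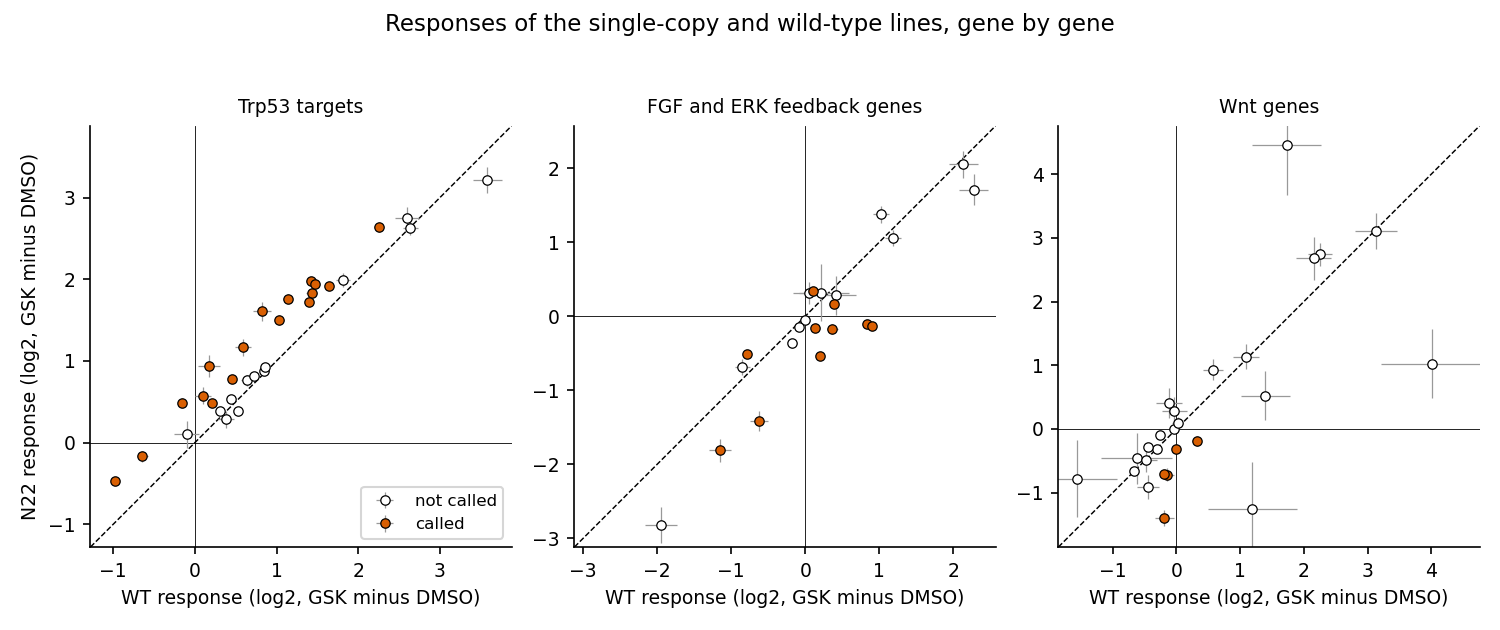
Responses in N22 (y axes) against WT (x axes), log2 with standard errors, for members of 3 lists, with filled dots for genes called for the response difference and a dashed line of equal responses. All 17 called p53 (Trp53) targets lie above the line, and 8 of 10 called FGF and ERK genes and all 5 called Wnt genes lie below it.

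Naive pluripotency genes were called in both directions, 8 higher and 7 lower of 35 (42.86% against 11.1% of all genes), with a median of -0.01. Tfcp2l1 (0.32 ± 0.05) and Dppa5a (0.26 ± 0.04) fell in both lines and fell less in N22. Zfp42, known as Rex1, was at 609 and 588 CPM in N22 GSK, 736 and 739 in N22 DMSO, 597 and 593 in WT GSK and 586 and 597 in WT DMSO; it fell in N22 to about the level that WT had in both conditions (response difference -0.31 ± 0.04). In the BMP list 2 of 17 were higher and 3 lower (29.41% against 11.1%). Id3, a BMP target, rose in both and less in N22 (-0.91 ± 0.18), the ligand gene Bmp4 fell in N22 (-0.51) and rose in WT (0.18), a response difference of -0.69 ± 0.11. The ligand gene Bmp7 had a higher response in N22 (response difference 1.55 ± 0.29), at 4.12 and 4.4 CPM in N22 GSK, 2.84 and 3.38 in N22 DMSO, 4.78 and 3.6 in WT GSK and 8.97 and 8.98 in WT DMSO.

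In the DNA methylation machinery 1 of 29 genes was higher and 5 lower (20.69% called against 11.1% of all genes). Dnmt3l, a cofactor of de novo methylation, rose in both lines and less in N22 (-0.22 ± 0.05), differing between them with GSK only, and the dioxygenase gene Tet2 fell in both and more in N22 (-0.36 ± 0.07). Among H3K9 and KRAB silencing factors 3 of 40 were higher and 6 lower (22.50% against 11.1%), with Zfp57, which protects imprints, at -0.39 ± 0.05. Of RNA sensing and interferon genes 3 of 28 were called (10.71%), near the 11.1% of all genes. The member with the smallest p, Ddx58, the RNA sensor RIG-I, was at 58.3 and 55.2 CPM in N22 GSK, 35.5 and 33.1 in N22 DMSO, 48.2 and 47.7 in WT GSK and 15.8 and 16.3 in WT DMSO (-0.85 ± 0.10).

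Cholesterol synthesis genes fell in 23 of 25 cases in each line, where 26.0% of all tested genes fell in N22 and 28.1% in WT. The response was higher in N22 for 8 members and lower for 1 (36.00% called against 11.1% of all genes), with a median response difference of 0.19. Hmgcs1, an early enzyme of the pathway (0.35 ± 0.05), and its regulator Insig1 (0.33 ± 0.07) fell in both lines and less in N22, and 5 members were called higher without N22 DMSO replicate 1. In the hypoxia and glycolysis list 3 of 45 were higher and 8 lower (24.44% called against 11.1% of all genes), and the higher share was near the 5.82% of all genes. Slc16a3, a lactate exporter gene, was at 56 and 57 CPM in N22 GSK, 219 and 216 in N22 DMSO, 87.8 and 90.6 in WT GSK and 215 and 225 in WT DMSO, overlapping between the lines with DMSO and lower in N22 with GSK (-0.64 ± 0.07, adjusted p = 8.19e-11). Pdk1, an inhibitor of pyruvate entry into mitochondria, did the same (-0.34 ± 0.06).

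Mitochondrially encoded genes were called lower in 3 of 15 cases (5.26% of all genes were), with a median of -0.37. The 16S ribosomal RNA mt-Rnr2 was at 625 and 602 CPM in N22 GSK, 313 and 325 in N22 DMSO, 549 and 472 in WT GSK and 80.9 and 74.2 in WT DMSO (-1.77 ± 0.14, adjusted p = 0.00046). mt-Nd1 (-0.60 ± 0.10) lost its call without WT DMSO replicate 2 or N22 GSK replicate 2. The share of all counts from mitochondrial genes was 3.20% and 3.06% in N22 GSK, 2.17% and 2.39% in N22 DMSO, 2.95% and 2.77% in WT GSK and 1.78% and 1.65% in WT DMSO, and its part in these results was not tested. The leucine tRNA genes mt-Tl1 (-2.58 ± 0.65) and mt-Tl2 (2.21 ± 0.51) went opposite ways, and Lars2, the mitochondrial leucyl-tRNA synthetase gene, was lower (-1.51 ± 0.26). The value of mt-Tl1 rests on 3 and 2 counts in WT DMSO, against 39 and 50 in WT GSK. By position, mt-Tl1 (bases 2676 to 2750) lies directly between mt-Rnr2 (to 2675) and mt-Nd1 (from 2751), which were also called lower. Whether its counts are separate from theirs was not tested. Lars2 lost its call with the 8 libraries fitted alone and without either WT DMSO library, WT GSK replicate 2 or N22 GSK replicate 1, and mt-Tl1 without WT DMSO replicate 2.

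**Figure D5:**
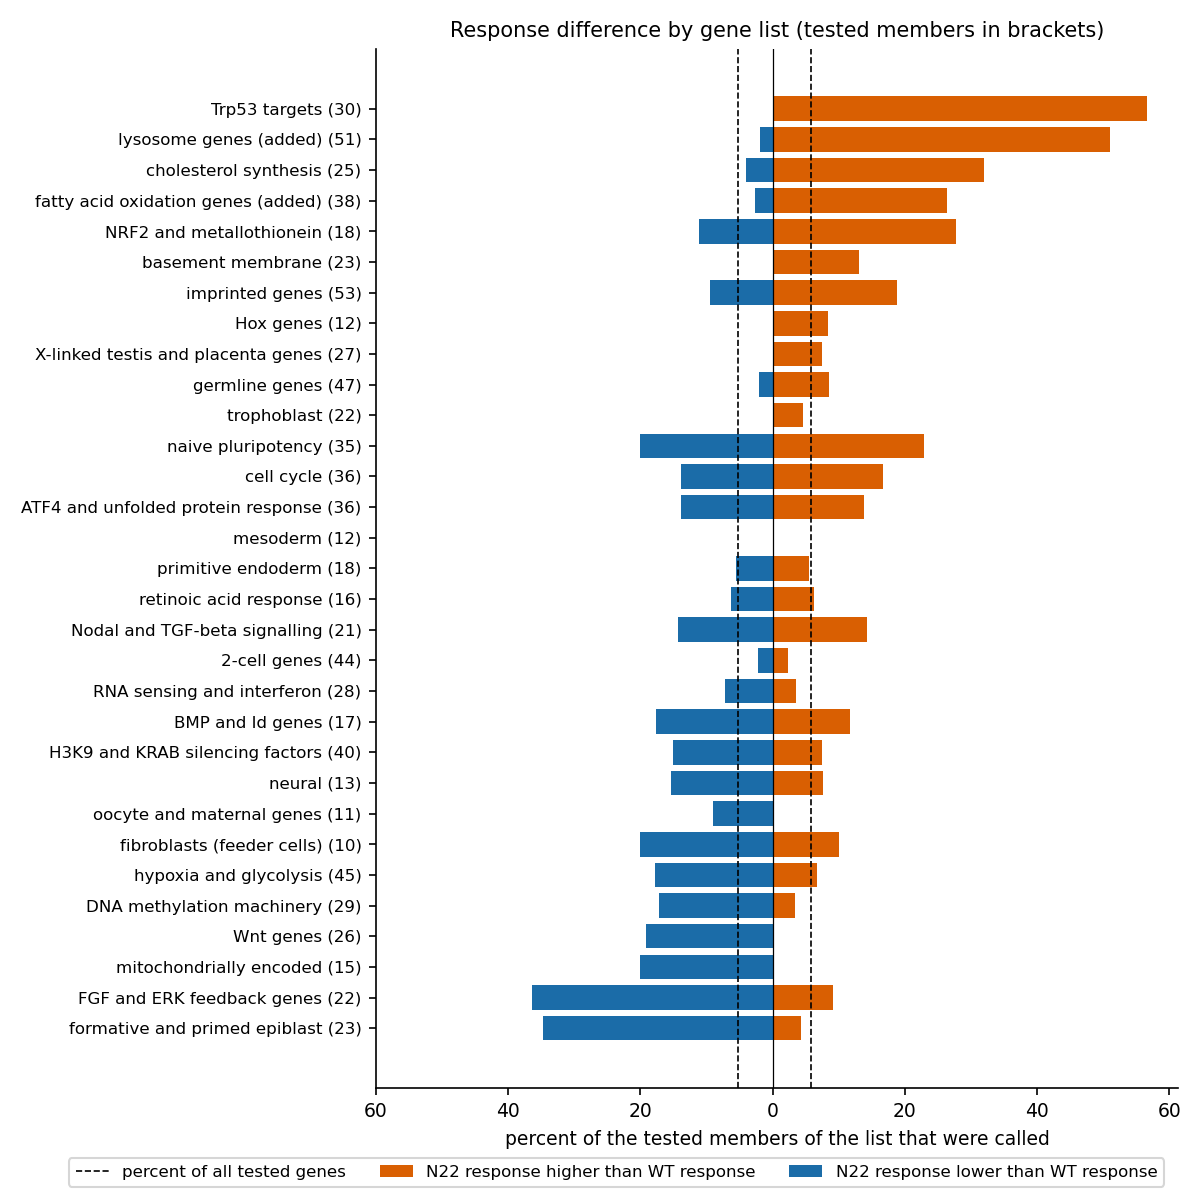
Percent of the tested members of each list (numbers in brackets) called with a higher response in N22 (right) or a lower one (left), by edgeR; dashed lines give the percent of all 16641 tested genes, 5.82 higher and 5.26 lower. The p53 (Trp53) targets reach furthest to the right and the FGF and ERK and the formative and primed lists furthest to the left; 2 lists marked as added were drawn up after values were seen.

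Beyond the lists, the lowest response difference among nuclear genes that averaged 1 or more on the log2 CPM scale and met the naming rule was that of Nlrc4, an inflammasome gene, which rose in both lines. It was at 34.3 and 32.1 CPM in N22 GSK, 7.13 and 8.54 in N22 DMSO, 25.3 and 24.1 in WT GSK and 2.03 and 0.998 in WT DMSO, and WT, which had the lower DMSO level, gained more (-1.95 ± 0.22, adjusted p = 5.91e-10). Nlrp12, of the same receptor family, fell in N22 (-0.90) and rose in WT (0.69), a response difference of -1.59 ± 0.16. Irgm1, an interferon-inducible GTPase gene (-1.59 ± 0.40), Vrtn (-1.72 ± 0.40), Tmem266 (-1.74 ± 0.42) and Ehd2, a membrane trafficking gene (-1.56 ± 0.36), were also higher in N22 than in WT with DMSO only. In the other direction the response differences were 1.67 ± 0.28 for the collagen gene Col26a1, 1.56 ± 0.23 for Rab3il1 and 1.58 ± 0.32 for Acot2, a mitochondrial thioesterase gene. All 3 rose in N22, and in WT Col26a1 and Rab3il1 fell and Acot2 was not called (-0.09). Col26a1 was at 6.3 and 6.65 CPM in N22 GSK, 2.73 and 3.12 in N22 DMSO, 5.96 and 4.61 in WT GSK and 6.04 and 9.13 in WT DMSO. Irgm1 lost its call without WT DMSO replicate 2 and Tmem266 without WT DMSO replicate 1.

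Of the largest differences called with GSK only, that of mt-Tl2 kept its call whichever library was left out, and those of Lars2, Spesp1, Cela1 and Fam19a4 did not. Spesp1, a sperm head gene, was at 1.88 and 1.88 CPM in N22 GSK, 0.724 and 1.13 in N22 DMSO, 4.67 and 3.97 in WT GSK and 0.427 and 0.788 in WT DMSO (-1.80 ± 0.56, adjusted p = 0.0231). Cela1, an elastase gene, had a response of -2.35 in N22, where it fell, and of -0.67 in WT, where it was not called, a response difference of -1.68 ± 0.48. Fam19a4 had a response of -0.17 in N22, not called, and of 1.29 in WT, where it rose, a response difference of -1.46 ± 0.41. Spesp1 lost its call without N22 DMSO replicate 2, WT DMSO replicate 1, WT GSK replicate 1 or either N22 GSK library, Cela1 without N22 DMSO replicate 2, WT DMSO replicate 2, WT GSK replicate 2 or N22 GSK replicate 1, and Fam19a4 without N22 DMSO replicate 1 or WT GSK replicate 2. In the class with no called level difference, the largest were Lrrk1 (-1.43 ± 0.49), Mical2 (1.29 ± 0.42), Entpd4b (-1.24 ± 0.41), Smarca2 (1.23 ± 0.39) and Slit2 (1.15 ± 0.36), each of which lost its call in at least 4 of the 8 omissions of a library, with each of the 8 libraries deciding at least 1 of them.

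Libraries and cell mixture were checked on the same files. Total counts were 16759053 to 19427794 per library. Replicates differed by more than sampling noise (chi-square per degree of freedom 2.61 to 3.20). Summed markers of fibroblasts, mostly Fn1, lay at 1256 to 1265 CPM in N22 GSK, 1941 to 1978 in N22 DMSO, 1085 to 1112 in WT GSK and 1989 to 2043 in WT DMSO, and 3 of 10 were called for the response difference, 1 higher and 2 lower. Primitive endoderm markers lay at 1107 to 1127 CPM in N22 GSK, 784 to 786 in N22 DMSO, 1029 to 1053 in WT GSK and 776 to 785 in WT DMSO, with 1 of 18 higher and 1 lower. Of trophoblast markers 1 of 22, of mesoderm markers 0 of 12 and of neural markers 3 of 13 were called. Against 11.1% of all genes, the called share was 30.0% for fibroblast, 23.08% for neural, 11.11% for primitive endoderm and 4.55% for trophoblast markers. In bulk libraries fewer cells of a type and less RNA per cell cannot be told apart, and the part of cell mixture in the results was not tested. In the other lists, to be read against 5.82% higher and 5.26% lower over all genes, the called members were 6 higher and 5 lower of 36 cell cycle genes, 5 and 5 of 36 genes of the ATF4 and unfolded protein response, 5 and 2 of 18 NRF2 and metallothionein genes, 3 and 3 of 21 Nodal and TGF-beta genes, 3 and 0 of 23 basement membrane genes, 1 and 1 of 16 retinoic acid genes, 0 and 1 of 11 oocyte genes, 1 and 0 of 12 Hox genes and 0 and 1 of 8 protocadherin genes.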

How the data were processed

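RNA sequencing of 8 libraries was compared, with 4 KO22 libraries (the line labelled as lacking Dux) in the same model to estimate the spread; the 10 untreated libraries were not used here. The authors deposited raw counts: whole fragments on the exons of each Ensembl 84 gene (GRCm38), with no normalization, per the file headers. Reads were processed with fastp 0.23.2, HISAT2 2.1.0 and featureCounts 2.0.1, and DESeq2 1.40.2 is listed, per the submitters' processing notes. The recorded commands count pairs and ask for neither multi-mapping reads nor strand, so near-identical copies (Dux, Zscan4, Usp17l, Tdpoz and Xlr genes) are partly lost and overlapping or antisense genes cannot be told apart. Symbols came from GENCODE M21 (47224 of 47729 identifiers).

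Groups were taken from titles. The quasi-likelihood test of edgeR 4.0.16 (R 4.3.3) was run in its robust form on 6 group means over 12 libraries, after TMM scaling and a filterByExpr threshold of 10 counts. It tested 16641 genes with a common biological coefficient of variation of 0.0435. The contrasts were the response difference, both responses and both level differences, each with Benjamini-Hochberg adjustment over all tested genes and a threshold of 0.05; all share libraries. A standard error is the size of the log2 value divided by the square root of its F statistic. CPM of single genes use TMM-scaled totals and sums of families use raw totals. Ratios of groups with few counts carry exact 95% counting intervals, and a group at 0 has a floor of 3 counts over the group; both cover counting error only, since without molecular identifiers reads cannot be taken as separate molecules. On simulated data with this model 97 of 100 genes with a log2 response difference of 1 and 99 of 100 with 2 were recovered, with 15 false calls among 16389 genes. The changed genes were drawn only from those with higher counts, and every gene was given the same common coefficient of variation. Recovery of low-count genes, and calls among genes that vary more, were therefore not tested. Alternatives were RLE factors, DESeq2 1.42.0, no filter, the 8 libraries alone, a replicate block, omission of each library, glmTreat, other class and list definitions, and a GC content offset.

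The comparison and the 31 gene lists were chosen with earlier results of these data known, and lists are described by counts with no set test. Named genes were 9 fixed 2-cell genes, the 10 largest called differences in each direction and the 5 largest per class (mean log2 CPM of at least 1, over 3 counts in each group, no overlap of library pairs, no unnamed model), and up to 5 members per list with the smallest p; fewer are named than the rule allows, and those outside it are said to be. Windows at annotated starts came from RefSeq, where the RefSeq start lay within 1000 bases of the start in the count files. Mest, Rhox5, H19 and Mirg are named only.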

Additional observations from a re-analysis of the deposited data

Results flagged for a closer look

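Responses that differed between the lines by the interaction test (edgeR, adjusted p below 0.05) stand out in both directions; each value is the N22 response minus the WT response on the log2 scale, with 2 libraries a group. The libraries of these groups are too few for a search for single outlying samples.

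Higher responses in N22 were largest at imprinted genes, with Meg3 at 7.73 and Rian at 6.95, both of which rest on 4 or fewer counts in N22 DMSO. The fitted value of Mirg, 7.34, is set against 0 counts in N22 DMSO and depends on the prior count, so it has no place in that order; the counts give a GSK to DMSO ratio of at least 216 in N22 and of 16.4 in WT. H19 (3.02), Plagl1 (2.76), Mest (2.71), Dlk1 (1.06) and Cd81 (0.53) followed. Among X-linked, germline and 2-cell genes the values were 2.18 for Fmr1nb, 1.64 for Gm21761, 1.45 for Usp26, 1.29 for Rhox5, 1.28 for Sycp3 and 0.68 for Stra8. The p53 targets Bbc3 (0.65), Cdkn1a (0.63), Phlda3 (0.56), Ddit4 (0.50) and Trp53inp1 (0.47) were higher. So were the cholesterol genes Hmgcs1 (0.35) and Insig1 (0.33), and the naive genes Tfcp2l1 (0.32) and Dppa5a (0.26). Further higher values were those of mt-Tl2 (2.21), Col26a1 (1.67), Acot2 (1.58), Rab3il1 (1.56) and Bmp7 (1.55). Mical2 (1.29), Smarca2 (1.23) and Slit2 (1.15) were higher with no called level difference. Lysosome genes drawn up after values were seen were at 1.35 for Hexa, 0.59 for Grn, 0.46 for Ctsd, 0.40 for Ctsl and 0.34 for Lamp1. Fatty acid genes of the same kind were at 1.04 for Acot1, 1.02 for Fabp3, 0.87 for Lpin1, 0.74 for Cpt1c and 0.61 for Cpt1a.

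Lower responses in N22 were found for mt-Tl1 (-2.58), Nlrc4 (-1.95), Spesp1 (-1.80), mt-Rnr2 (-1.77), Tmem266 (-1.74) and Vrtn (-1.72). The value of mt-Tl1 rests on 3 and 2 counts in WT DMSO. Cela1 (-1.68), Nlrp12 (-1.59), Irgm1 (-1.59), Ehd2 (-1.56), Lars2 (-1.51) and Fam19a4 (-1.46) were lower as well. Lrrk1 (-1.43) and Entpd4b (-1.24) were lower with no called level difference. FGF, ERK and Wnt genes stood at -1.03 for Myc, -0.94 for Dusp6, -0.74 for Spry4, -0.54 for Egr1 and -0.30 for Etv4. Lef1 (-1.21), Axin2 (-0.57), Ccnd1 (-0.51) and Notum (-0.50) were lower too. Developmental genes on this side were Id3 (-0.91), Bmp4 (-0.69), Pou3f1 (-0.57), Tcf15 (-0.54) and Zfp42 (-0.31). Methylation and silencing genes were Dnmt3b (-0.40), Tet2 (-0.36), Dnmt3l (-0.22) and Zfp57 (-0.39). The imprinted genes Zdbf2 (-0.43), Peg10 (-0.31) and Impact (-0.19) were lower, as were Ddx58 (-0.85), Slc16a3 (-0.64), Pdk1 (-0.34), mt-Nd1 (-0.60), Manba (-0.66), Hadhb (-0.45) and Eif1a (-0.21).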

How the results depend on the processing

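DESeq2 called 1177 genes, 528 of them higher, with 781, 140 and 144 genes in the DMSO-only, GSK-only and both classes and 912 with the larger difference with DMSO; 1167 of its calls were also called by edgeR. Testing against a log2 size of 0.5 (glmTreat) left 63 genes, 32 higher and 31 lower, with 31, 1, 31 and 0 in the classes DMSO only, GSK only, both and neither and 57 with the larger difference with DMSO. Under that test the lists kept 6 imprinted higher and 0 lower, 3 FGF and ERK lower and 0 higher, 1 Wnt lower, 1 formative lower and 0 higher, 1 lysosome higher and 0 lower, and 0 in either direction for 2-cell, p53, naive and cholesterol genes. Sorting by a level difference of at least 1 (log2) in place of the call gave 116, 17, 18 and 1693 genes in these classes. The 2-cell list had 2 higher members with the 8 libraries fitted alone and 0 without multi-copy families, and lysosome genes 2 lower with a GC content offset, an alternative chosen after seeing the data.

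Leaving out 1 of the 8 libraries left 1264 to 1495 called genes, 644 to 774 higher and 620 to 724 lower, with 791 to 1061, 161 to 224, 137 to 193 and 87 to 117 in the classes and 962 to 1149 with the larger difference with DMSO. Higher and lower members ranged from 0 to 2 and 0 to 2 for 2-cell genes, 7 to 9 and 3 to 5 for imprinted genes, 15 to 17 and 0 to 1 for p53 targets, and 1 to 2 and 6 to 9 for FGF and ERK genes. They ranged from 0 to 1 and 4 to 6 for Wnt genes, 0 to 1 and 8 to 8 for formative genes, 6 to 7 and 6 to 8 for naive genes, 5 to 8 and 0 to 1 for cholesterol genes and 19 to 24 and 1 to 2 for lysosome genes. The 2-cell median ranged from 0.07 to 0.49. Signs turned for 3 genes that were not called: Duxf3 ranged from -2.08 to 2.60 (positive without N22 DMSO replicate 1), Tmem92 from -6.81 to 0.03 (positive without N22 DMSO replicate 2) and Zscan4d from -0.56 to 1.37. The cause was not tested. With a lone library in a group, that library is assumed to vary like the other groups.

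Replicate numbers do not pair the samples (correlation of same-numbered deviations -0.01 to 0.02). A replicate block called 1899 genes, 999 of them higher, 1831 of them shared with the fit without it. RLE factors, no count filter, the 8 libraries alone and a GC offset kept every other count within 1.5 times, though more called genes were lower than higher with RLE factors (858 higher, 975 lower), without the filter (767 and 975) and with the GC offset (921 and 1017), as with DESeq2 (528 and 649). With 2 libraries a group, small changes of low genes such as those of the 2-cell list are measured with standard errors of the size of the difference.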

Other observations

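Genes of the lysosome, the organelle that breaks down proteins and lipids, had a higher response in N22 in 26 of 51 cases and a lower one in 1, by edgeR, with a median response difference of 0.305. In all tested genes 5.82% were higher and 5.26% lower. The list was drawn up after single lysosome genes were seen among the called genes, so its count is a description. Hexa, a subunit of the ganglioside hydrolase hexosaminidase, was at 28 and 32.4 CPM in N22 GSK, 25.1 and 20.8 in N22 DMSO, 19.8 and 21 in WT GSK and 38.2 and 40.5 in WT DMSO (1.35 ± 0.13). N22 lay above WT with GSK and below it with DMSO. The progranulin gene Grn (0.59 ± 0.07), the protease genes Ctsd (0.46 ± 0.05) and Ctsl (0.40 ± 0.06) and the membrane protein gene Lamp1 (0.34 ± 0.05) were higher, and Manba, a mannosidase gene, was lower (-0.66 ± 0.06). As a list, the median response was 0.288 in N22 and -0.05 in WT. With GSK 16 members were called higher in N22 and 0 lower, where 5.05% of all genes were higher, and with DMSO 2 were higher and 22 lower, where 13.9% of all genes were lower. With single libraries left out, 19 to 24 members were higher.

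Genes of fatty acid transport and oxidation, also listed after values were seen, were higher in 10 of 38 cases and lower in 1, with a median of 0.08. This is 28.95% called against 11.1% of all genes, of which 5.82% were higher and 5.26% lower. Fabp3, a fatty acid binding protein gene, was at 64.7 and 62.1 CPM in N22 GSK, 69.5 and 71.9 in N22 DMSO, 51.3 and 49 in WT GSK and 111 and 117 in WT DMSO (1.02 ± 0.08). Cpt1a, the gate of fatty acid entry into mitochondria (0.61 ± 0.07), its relative Cpt1c (0.74 ± 0.11), the phosphatase gene Lpin1 (0.87 ± 0.10) and the thioesterase gene Acot1 (1.04 ± 0.13) were higher. Hadhb, a subunit of the trifunctional oxidation enzyme, was lower (-0.45 ± 0.10) and lost its call without N22 DMSO replicate 1. Acot1 and Acot2 are close relatives, so reads shared between them would be left uncounted.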
